A study of Homo sapiens with 6 samples.

Results

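The p38 module examined here was a set of 10 kinase genes out of the 21533 genes listed for each sample. It held the 4 p38 MAPK genes MAPK11, MAPK12, MAPK13 and MAPK14, the MAP2K genes MAP2K3, MAP2K4 and MAP2K6, the upstream kinase gene MAP3K5, and the p38-activated kinase genes MAPKAPK2 and MAPKAPK3. The genes were taken by symbol, and each symbol matched 1 gene. The selection rule held no expression value, but the set was drawn up when earlier results of these data were known. Their mRNAs were counted by RNA sequencing of LX-2 cells, an immortal line derived from human hepatic stellate cells, the liver cells that make fibrous matrix when activated. Of 6 libraries, 3 came from cells transfected with siRNA against PERK and 3 from cells transfected with a control siRNA. All 6 cultures received palmitic acid, a saturated fatty acid, and RNA was taken 24 h later, so no comparison with untreated cells is made. PERK, encoded by EIF2AK3, senses stress in the endoplasmic reticulum, and the title of the series places p38δ and IL-1β downstream of it in stellate cells. Nothing in the labels states that samples of a group were separate cultures, so the p-values rest on sample-to-sample spread that may be technical only.

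The p38 MAPKs are stress-activated kinases that stand at the end of a relay. A MAP3K such as ASK1, the product of MAP3K5, phosphorylates a MAP2K, and the MAP2K phosphorylates p38 on a threonine and a tyrosine. MKK3 and MKK6, from MAP2K3 and MAP2K6, are dedicated to p38, while MKK4, from MAP2K4, acts on both JNK and p38. Active p38 switches on the kinases MK2 and MK3, from MAPKAPK2 and MAPKAPK3, which control the stability and translation of inflammatory mRNAs. The relay runs on phosphorylation, which mRNA levels do not measure.

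The feature that makes the 4 isoforms p38 kinases is the same in each, and it is encoded in exon 7 of the transcript used for each gene. The coding stretches below run from the start of the activation segment to its end, 75 bases in each gene, with the codons of the phosphorylated Thr-Gly-Tyr motif in capitals. They are shown because they hold the shared feature of 4 genes whose expression differed.
MAPK14: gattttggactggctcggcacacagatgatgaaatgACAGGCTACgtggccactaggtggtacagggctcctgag
MAPK11: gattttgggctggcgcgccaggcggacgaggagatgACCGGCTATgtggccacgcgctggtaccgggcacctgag
MAPK12: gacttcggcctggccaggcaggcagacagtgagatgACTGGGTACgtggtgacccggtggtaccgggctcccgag
MAPK13: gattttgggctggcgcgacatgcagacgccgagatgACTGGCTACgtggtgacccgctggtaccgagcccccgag
They lie in GRCh38 at chr6:36075854-36075928 on the plus strand for MAPK14, chr22:50266968-50267042 on the minus strand for MAPK11, chr22:50256119-50256193 on the minus strand for MAPK12, and chr6:36136662-36136736 on the plus strand for MAPK13, read from GENCODE 29 transcripts. MAPK13 shared 56 of the 75 bases with MAPK14, 61 with MAPK12 and 62 with MAPK11. Over the whole coding sequence MAPK13 was 66.9% identical to MAPK14, and no run of over 26 bases was common to any pair of the 4. Every read counted for the 10 genes in the 6 libraries was placed uniquely (100% for each), so the isoforms were told apart as the authors counted them.

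The corresponding stretches of the MAP2Ks carry the serine and the threonine codons, in capitals, that a MAP3K phosphorylates. They are shown for the 3 MAP2Ks because these genes also diverged in expression.
MAP2K3: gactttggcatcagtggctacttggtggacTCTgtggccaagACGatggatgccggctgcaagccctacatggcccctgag
MAP2K6: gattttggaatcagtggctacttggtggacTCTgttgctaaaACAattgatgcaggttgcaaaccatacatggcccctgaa
MAP2K4: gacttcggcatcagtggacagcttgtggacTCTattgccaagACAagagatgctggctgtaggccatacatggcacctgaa
Each of these runs of 81 bases joins exons 8 and 9 of its gene on the plus strand of chromosome 17. MAP2K3 and MAP2K6 shared 69 of the 81 bases, whereas MAP2K4 shared 64 with MAP2K3 and 62 with MAP2K6.

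The libraries held 17937141 to 19535253 exon reads with PERK siRNA and 18560051 to 19585872 with control siRNA. Levels are given as CPM (counts scaled to library size, with TMM factors), or per exon length as the authors' deposited TPM where genes are set against each other. A count of 3 reads corresponded to 0.153 to 0.167 CPM before TMM scaling, a floor that covers counting error only. The targeted EIF2AK3 mRNA had 78, 97 and 106 reads in the PERK siRNA samples, against 254, 242 and 268 reads in the control samples, without overlap. It stood at 37.3% of its control level with PERK siRNA (log2 fold change -1.42, SE 0.10, adjusted p = 3.0e-13 by edgeR's quasi-likelihood test), in GENCODE 29 with 15.1% of its exon bases under noncoding genes. Stellate markers summed to 6821 to 6892 CPM with PERK siRNA and to 5958 to 6198 CPM with control siRNA, although DES and LRAT were near 0. Of the 8 stellate markers 6 were tested, 4 rose and 1 fell, with log2 fold changes from -0.17 to 1.95. That is 83.3% called, beside 69.5% of all tested genes. Of 5 hepatocyte markers, ALB, APOA1, TTR and CYP3A4 had no read. The other, SERPINA1, had 3.43 to 4.37 CPM with PERK siRNA and 3.75 to 4.97 CPM with control siRNA, and did not pass the test. The 4 endothelial markers summed to 2.91 to 3.63 CPM with PERK siRNA and 11.2 to 11.6 CPM with control siRNA. PECAM1 alone made that difference (0.632 against 8.95 CPM), since KDR was higher with PERK siRNA (2.03 against 1.49 CPM, not past the test) and VWF overlapped. The 5 macrophage or leukocyte markers summed to 73.2 to 76.2 CPM with PERK siRNA and 82.3 to 86.0 CPM with control siRNA. Most of this was CD68, which like ADGRE1 did not pass the test, while CSF1R (0.558 against 5.03 CPM) and CD14 (7.11 against 9.9 CPM) fell. The pan-leukocyte gene PTPRC was near the floor and higher with PERK siRNA (0.567 against 0.292 CPM), but did not pass the filter on low counts and was not tested. The 3 cholangiocyte markers summed to 6.56 to 6.97 CPM with PERK siRNA and 10.99 to 12.99 CPM with control siRNA, nearly all of it KRT7, which fell. The part of these shifts in the results below was not tested. All libraries came from the LX-2 line, and within it fewer cells carrying a marker cannot be told apart from less of its RNA per cell.

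All 10 kinases passed the filter on low counts, 4 fell, 2 rose and 4 did not pass the test. MAPK13, MAP2K4, MAP2K6 and MAP3K5 were lower with PERK siRNA, MAPKAPK3 and MAPK12 were higher, and MAPK11, MAPK14, MAP2K3 and MAPKAPK2 had an adjusted p above 0.05. The 6 calls among 10 genes stand beside a background in which 69.5% of all 12973 tested genes passed, 34.4% higher and 35% lower. Against a null of a 1.2-fold change 5 of the 10 passed, 1 higher and 4 lower, beside 36.1% of all tested genes (18.1% higher and 18.1% lower). The CPM ranges of the groups did not overlap for 8 of the 10, with PERK siRNA above for 3 and below for 5, beside 35.8% above and 36% below among all tested genes. With backgrounds this high, the number of kinases called says little about the module. The median of the 10 log2 fold changes was -0.033, against 0.0038 for all tested genes.

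**Figure D1:**
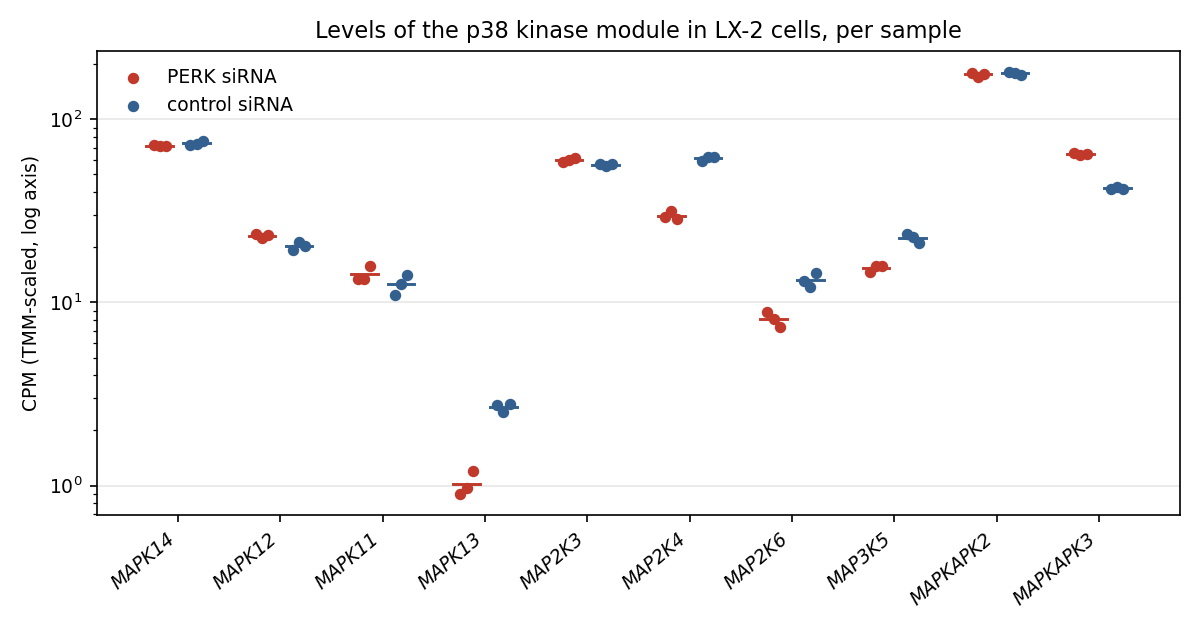
Level of each of the 10 kinase genes in CPM on a log axis, with 1 point per sample and a line at the group mean, PERK siRNA in red and control siRNA in blue (n = 3 each). MAPK13, MAP2K4, MAP2K6 and MAP3K5 sit lower with PERK siRNA without overlap, MAPKAPK3 sits higher, and the MAPKAPK2 and MAPK11 points overlap.

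MAPK13, which encodes p38δ, had the largest estimated change of the 10 genes and the lowest level. The gene (ENSG00000156711) lies on chromosome 6 from 36127809 to 36144524 on the plus strand. It had 16, 19 and 23 reads in the PERK siRNA samples, against 54, 47 and 54 reads in the control samples. In CPM these were 0.897, 0.972 and 1.2 with PERK siRNA, against 2.75, 2.52 and 2.80 with control siRNA. The highest PERK siRNA sample thus lay below the lowest control sample by more than the range of either group. The mean was 1.02 ± 0.16 CPM with PERK siRNA and 2.69 ± 0.15 CPM with control siRNA (SD, n = 3 each), which left 38.03% of the control level. The log2 fold change was -1.39 with a 95% confidence interval from -1.84 to -0.93 (adjusted p = 2.8e-06, edgeR's quasi-likelihood test). That size exceeded the size of the change of 96.4% of all tested genes. With a mean of 19.3 reads in the PERK siRNA samples, counting error alone gives a coefficient of variation of 22.7%, above the 15.3% seen, so the interval is wide because the gene is scarce. The MAPK13 interval held the whole interval of MAP2K4 (-1.13 to -0.94), so which of these genes fell more is not settled. In mean CPM, 8.80% of the tested genes were lower than MAPK13.

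Its neighbour MAPK14, which encodes p38α, the broadly expressed isoform, differed little. MAPK14 (ENSG00000112062; chromosome 6, 36027677 to 36111236, plus strand) ends 16572 bases before MAPK13 begins, with no protein-coding gene between them. It had 71.9, 71.8 and 71.2 CPM with PERK siRNA, against 72.5, 73.5 and 75.8 CPM with control siRNA. The 3 PERK siRNA values lay just below the 3 control values, without overlap. The log2 fold change was -0.046 with a 95% interval from -0.12 to 0.026 (adjusted p = 0.25, edgeR), so a change of MAPK14 on the scale of that of MAPK13 lies outside the interval. The MAPK14 to MAPK13 ratio of TPM was 60.6 to 81.7 in the PERK siRNA samples and 26.9 to 29.7 in the control samples. An exact permutation test over 3 against 3 samples cannot go below p = 0.10, so the tests of ratios and shares within a sample cannot pass the threshold.

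MAPK12 and MAPK11, the other neighbouring pair, were both slightly higher on average. MAPK12 (ENSG00000188130), which encodes p38γ, an isoform best known in muscle, lies on chromosome 22 from 50245450 to 50261825 on the minus strand. MAPK11 (ENSG00000185386), which encodes p38β, lies 1887 bases beyond it, from 50263713 to 50270767 on the same strand. MAPK12 had 23.7, 22.6 and 23.3 CPM with PERK siRNA, against 19.2, 21.5 and 20.4 CPM with control siRNA. The groups did not overlap, and the log2 fold change was 0.18 (95% interval 0.059 to 0.31, adjusted p = 0.0091, edgeR). DESeq2 did not make that call (adjusted p = 0.066), nor did the test against a 1.2-fold change (adjusted p = 1.0) or edgeR once control sample 1 was left out (adjusted p = 0.070). In GENCODE 29, 29.3% of the MAPK12 exon bases overlap HDAC10, but the authors' exon length for MAPK12 was 2080 bases against 9424 there, so the overlap in their annotation is not known. MAPK11 had 13.5, 13.5 and 15.9 CPM with PERK siRNA, against 11.04, 12.6 and 14.1 CPM with control siRNA. The groups overlapped, since control sample 3 lay above PERK siRNA samples 1 and 2. The MAPK11 log2 fold change was also 0.18, with a wider interval from -0.0056 to 0.37 (adjusted p = 0.078, edgeR). It passed on unique exon reads (adjusted p = 0.046), although its own counts are the same there. Leaving out control sample 3 also gave a call (log2 fold change 0.27, adjusted p = 0.015), whereas the log2 fold change was 0.097 without PERK siRNA sample 3 and 0.091 without control sample 1, with no call.

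**Figure D2:**
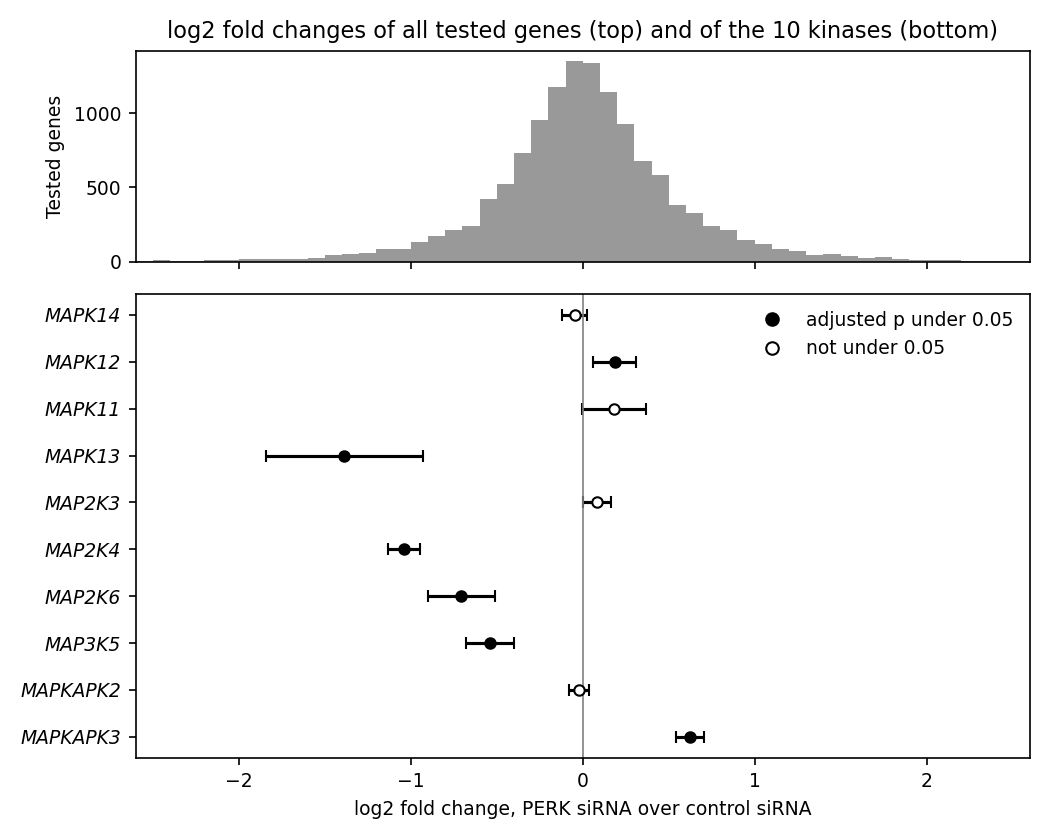
Upper panel, number of tested genes per 0.1 of log2 fold change (12917 of the 12973 genes lie on the axis shown). Lower panel, log2 fold change of each kinase gene, PERK siRNA over control siRNA, with its 95% confidence interval, filled where the adjusted p was under 0.05. MAPK13 and MAP2K4 lie in the left tail of the distribution, at -1.39 and -1.04.

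Per exon length, p38δ was a minor part of the p38 pool in both groups. MAPK13 made up 0.48, 0.53 and 0.63% of the summed TPM of the 4 isoforms with PERK siRNA, against 1.64, 1.4 and 1.53% with control siRNA. Its share was thus lower in every PERK siRNA sample, while its loss was small beside the pool. The summed p38 TPM was 98.0 ± 1.83 with PERK siRNA and 93.5 ± 4.35 with control siRNA (SD, n = 3 each). MAPK14 took 39.2 ± 1.05% of the pool with PERK siRNA and 42.6 ± 1.30% with control siRNA. MAPK12 took 39.5 ± 0.89% and 36.6 ± 1.29%, so that the MAPK12 and MAPK14 ranges overlapped with PERK siRNA, while MAPK14 led without overlap with control siRNA. These levels rest on the deposited exon length of 2080 bases for MAPK12, which GENCODE 29 gives as 9424 bases, so the place of MAPK12 beside the other isoforms depends on the annotation. MAPK11 took 20.7 ± 1.60% with PERK siRNA and 19.2 ± 1.54% with control siRNA, with overlapping ranges. Of the 9 shares within tiers that were tested, 8 reached the smallest possible exact p of 0.10 (0.11 after Benjamini-Hochberg adjustment) and that of MAPK11 had p = 0.40. Shares within a tier add to a fixed total, so these tests are not independent, and those of MAPKAPK2 and MAPKAPK3 are the same test.

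The 2 lower MAP2Ks were MAP2K4 and MAP2K6, whereas MAP2K3 stayed close to its control level. MAP2K4 (ENSG00000065559; chromosome 17, 12020824 to 12143830, plus strand) had 29.3, 31.6 and 28.5 CPM with PERK siRNA, against 59.3, 62.4 and 62.1 CPM with control siRNA. The PERK siRNA samples lay far below the controls, and their mean was 48.6% of the control mean. Its log2 fold change of -1.04 (95% interval -1.13 to -0.94, adjusted p = 5.6e-18, edgeR) was the most precisely measured of the falls, larger in size than that of 92.5% of tested genes. MAP2K6 (ENSG00000108984; chromosome 17, 69414698 to 69553861, plus strand) had 8.91, 8.14 and 7.39 CPM with PERK siRNA, against 13.2, 12.2 and 14.4 CPM with control siRNA. The groups did not overlap, and the log2 fold change was -0.71 (95% interval -0.90 to -0.51, adjusted p = 1.3e-07, edgeR). MAP2K3 (ENSG00000034152; chromosome 17, 21284672 to 21315240, plus strand) had 58.4, 59.98 and 61.3 CPM with PERK siRNA, against 56.7, 55.9 and 57.2 CPM with control siRNA. All 3 PERK siRNA samples lay above the controls, but the log2 fold change of 0.083 (95% interval 0.0039 to 0.16) missed the threshold (adjusted p = 0.057, edgeR). It passed without PERK siRNA sample 1 (0.10, adjusted p = 0.041).

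The make-up of the MAP2K tier differed between the groups in every sample. Per exon length, MAP2K4 held 27.2, 28.2 and 25.8% of the summed TPM of the 3 genes with PERK siRNA, against 43.4, 45.04 and 44.2% with control siRNA. MAP2K3 held 70.9 ± 1.30% with PERK siRNA and 53.2 ± 0.73% with control siRNA. The TPM ratio of MAP2K4 to MAP2K3 was 0.38 ± 0.024 with PERK siRNA and 0.83 ± 0.027 with control siRNA (SD, n = 3 each). The summed TPM of the tier was 99.0 ± 2.51 with PERK siRNA and 125.2 ± 1.58 with control siRNA, which is 79.1% of the control level. MAP2K6 was a small part in both groups, 2.04 ± 0.22% and 2.63 ± 0.21%. The size of these shares and of the ratio rests on the deposited exon lengths. These were 3861 bases for MAP2K4 and 2965 for MAP2K3, against 5714 and 3783 in GENCODE 29.

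MAP3K5, whose product ASK1 is activated by oxidative and endoplasmic reticulum stress, was lower as well. The gene (ENSG00000197442; chromosome 6, 136557047 to 136792518, minus strand) had 14.7, 15.8 and 15.8 CPM with PERK siRNA, against 23.5, 22.7 and 21.1 CPM with control siRNA. The highest PERK siRNA sample was well below the lowest control sample. The mean level with PERK siRNA was 68.7% of the control mean, a log2 fold change of -0.54 (95% interval -0.68 to -0.40, adjusted p = 3.4e-08, edgeR).

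Downstream of p38, MAPKAPK3 rose and MAPKAPK2 did not change detectably. MAPKAPK3 (ENSG00000114738; chromosome 3, 50611520 to 50649297, plus strand) had 65.4, 64.0 and 64.8 CPM with PERK siRNA, against 41.7, 42.9 and 41.6 CPM with control siRNA. Replicates lay close together, and the gap between the groups was many times their spread. The log2 fold change was 0.62 (95% interval 0.54 to 0.70, adjusted p = 2.6e-14, edgeR), and 5.56% of the exon bases overlap the gene CISH in GENCODE 29. MAPKAPK2 (ENSG00000162889; chromosome 1, 206684944 to 206734283, plus strand) was the most abundant of the 10 genes. It had 180.0, 169.7 and 177.0 CPM with PERK siRNA, against 181.4, 179.1 and 173.4 CPM with control siRNA, and the groups overlapped. Its log2 fold change was -0.020 (95% interval -0.079 to 0.039, adjusted p = 0.55, edgeR), so a fall beyond 0.079 lies outside the interval. The TPM ratio of MAPKAPK2 to MAPKAPK3 was 2.36 to 2.45 in the PERK siRNA samples and 3.71 to 3.87 in the control samples, and MAPKAPK3 held 29.3 ± 0.40% of the summed TPM of the pair with PERK siRNA and 21.0 ± 0.40% with control siRNA (SD, n = 3 each).

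**Figure D3:**
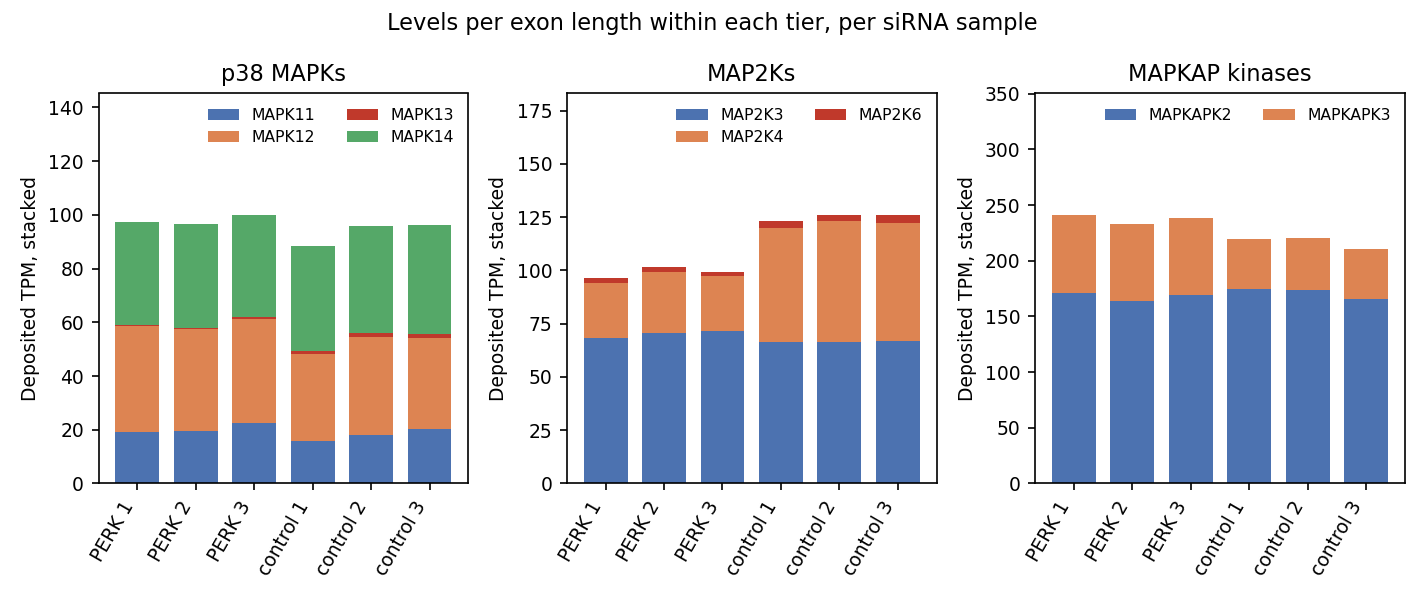
Deposited TPM of the genes of each tier, stacked for each sample, with the 3 PERK siRNA samples left of the 3 control siRNA samples. The MAP2K stack is lower with PERK siRNA (99.0 against 125.2 TPM on average) through MAP2K4, the MAPKAP kinase stack holds more MAPKAPK3, and MAPK13 is a thin band in the p38 stack.

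The order of the 10 genes by mean TPM was alike at both ends and differed in the middle. MAPKAPK2 was highest, at 168.1 ± 3.95 TPM with PERK siRNA and 171.2 ± 4.92 TPM with control siRNA, followed by MAP2K3. With PERK siRNA rank 3 was taken by MAPKAPK3 at 69.7 ± 0.33 TPM, which overlapped MAP2K3 at 70.2 ± 1.88 TPM, while MAP2K4 had rank 6 at 26.8 ± 1.60 TPM. With control siRNA MAP2K4 had rank 3 at 55.4 ± 1.69 TPM, above MAPKAPK3 at 45.5 ± 1.15 TPM. MAPK11, MAP3K5, MAP2K6 and MAPK13 filled the last 4 places in that order in both groups, with no overlap between neighbours, down to 0.54 ± 0.082 TPM for MAPK13 with PERK siRNA and 1.42 ± 0.067 TPM with control siRNA. With PERK siRNA the only overlapping neighbours in the order were MAP2K3 with MAPKAPK3 and MAPK12 with MAPK14, and with control siRNA there were none. All ranks and overlaps in this order hold for the deposited exon lengths only. GENCODE 29 gives 9424 bases for MAPK12 against 2080 deposited, 5714 against 3861 for MAP2K4, and 3921 against 3226 for MAPKAPK3.

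The genes whose 6 values ran most like those of MAPK13 were found by the Euclidean distance between log2 CPM profiles centred on their means, over the 6 samples and among 12395 genes. They were KLHL4 (distance 0.093, log2 fold change -1.33), DYNLT1 (0.12, -1.29) and BHLHE41 (0.16, -1.23). For MAP2K4 they were PRICKLE2 (0.073, -1.03), ETV4 (0.078, -1.01) and SYTL2 (0.078, -1.05). With 2 groups of 3 samples such closeness mostly reflects a fold change of similar size, and it is given as a description.

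Promoters of MAPK13 and MAPK14 are printed because these neighbours behaved differently. RefSeq promoter sequences, from 250 bases before to 50 bases after a gene's start in GRCh38.p14, were found for 9 of the 10 genes, 13 promoters in all. Capitals mark each GC box, the Sp1-type motif GGGCGG on either strand. MAPK13 lies at chr6:36130263-36130562 and MAPK14 at chr6:36027558-36027857, both on the plus strand. The RefSeq starts of MAPK13 and MAPK14 used here lie inside the genes as GENCODE 29 draws them, that of MAPK13 further in.
MAPK13: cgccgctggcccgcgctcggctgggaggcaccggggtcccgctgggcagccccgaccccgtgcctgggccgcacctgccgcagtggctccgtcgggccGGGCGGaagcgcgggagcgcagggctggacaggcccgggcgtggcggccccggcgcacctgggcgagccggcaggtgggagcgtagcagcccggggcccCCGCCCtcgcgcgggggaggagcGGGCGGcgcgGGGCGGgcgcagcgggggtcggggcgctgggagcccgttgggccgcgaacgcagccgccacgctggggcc
MAPK14: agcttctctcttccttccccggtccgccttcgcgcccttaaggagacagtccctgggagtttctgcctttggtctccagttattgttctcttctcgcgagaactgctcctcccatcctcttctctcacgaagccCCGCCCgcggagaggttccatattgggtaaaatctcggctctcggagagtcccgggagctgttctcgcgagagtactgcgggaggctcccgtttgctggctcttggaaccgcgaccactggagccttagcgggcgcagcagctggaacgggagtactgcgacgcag
The MAPK13 promoter was 84.0% G and C and held 4 GC boxes, and those of MAPK12 (81.7%, 4 boxes) and MAPK11 (80.7%, 6 boxes) were alike in this. The MAPK14 promoter was 60.3% G and C with 1 GC box, near the median of 58.7% over 35116 RefSeq promoters of this length, 45% of which hold a GC box. MAPK13 fell, whereas MAPK11 and MAPK12 had positive log2 fold changes. The ATF4-C/EBP motif TGATGNAA, which marks many targets of the PERK branch, was in none of the 13 promoters and in 3.62% of all promoters. The cyclic AMP response element TGACGTCA was in none of the 13 and in 1.85% of all, and the AP-1 motif TGANTCA was in 1, upstream of MAP2K3, and in 7.71% of all. All motifs were searched on both strands, and a missing match says only that these letters are not in the window.

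The genes around the module moved in both directions. Of 92 genes in 8 lists, 85 were tested, 31 rose and 30 fell, so 71.8% were called beside 69.5% of all tested genes, and the median log2 fold change was -0.0045. Of 16 further MAP3K and TAO kinase genes tested, 6 rose and 4 fell (median 0.0033), which is 62.5% called. MAP3K3, whose kinase feeds several MAPK branches, averaged 125.4 ± 4.15 CPM with PERK siRNA and 49.6 ± 0.89 CPM with control siRNA (log2 fold change 1.34, with 94.7% unique reads and 6.58% of its exon bases under LIMD2). MAP3K11, the mixed-lineage kinase MLK3, averaged 228.0 ± 1.46 and 129.5 ± 5.64 CPM (0.82). MAP3K7, which encodes the IL-1 pathway kinase TAK1, averaged 87.7 ± 2.50 and 59.3 ± 0.78 CPM (0.56). These 3 kinase genes upstream of the MAP2Ks were thus higher in the samples where MAP3K5 was lower.

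Adaptors and activators had 10 rises and 2 falls among 17 tested genes (median 0.25). That is 70.6% called, beside 69.5% of all tested genes (34.4% higher and 35% lower). Among the rises was CDC42, with only 6.64% of its reads placed uniquely. TAB2, which links TAK1 to ubiquitin chains, averaged 140.1 ± 2.22 CPM with PERK siRNA and 48.0 ± 1.04 CPM with control siRNA (log2 fold change 1.55). The small GTPase gene RAC1 averaged 408.1 ± 7.20 and 189.1 ± 6.49 CPM (1.11), and the gene of its effector kinase PAK1 138.4 ± 1.05 and 82.2 ± 2.65 CPM (0.75). In the JNK branch 2 of 5 tested genes rose and 2 fell (median -0.12), which is 80% called. MAPK8, the JNK1 gene, fell by 0.43 on the log2 scale, MAPK9, the JNK2 gene, rose by 0.15, and the scaffold gene MAPK8IP1 fell by 0.12. The MAPK9 and MAPK8IP1 calls were lost against a 1.2-fold change (adjusted p = 1 for each, edgeR).

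Among ERK and atypical MAPK genes, 3 of 10 tested rose and 4 fell (median -0.032). That is 70% called, beside 69.5% of all tested genes. MAPK6, which encodes the atypical kinase ERK3, averaged 64.2 ± 1.13 CPM with PERK siRNA and 189.6 ± 1.10 CPM with control siRNA (log2 fold change -1.56), larger in size than the value of any of the 10 kinases. MAP2K1, the MEK1 gene, was lower (-0.46, with 90.8% of reads placed uniquely). Of 6 other kinase genes downstream of p38, 2 rose and 3 fell (median -0.13), which is 83.3% called. MKNK2 and MKNK1, whose kinases phosphorylate the cap-binding factor eIF4E, were both lower (-1.03 and -0.55), and EEF2K, the eEF2 kinase gene, was higher (0.66).

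Of 14 genes whose products p38 or its downstream kinases phosphorylate, 6 rose and 5 fell (median -0.062). That is 78.6% called, beside 69.5% of all tested genes. HSPB1, which encodes the small heat shock protein HSP27 phosphorylated by MK2, averaged 175.6 ± 11.1 CPM with PERK siRNA and 65.4 ± 3.09 CPM with control siRNA (log2 fold change 1.42). The transcription factor genes ELK4 (0.74) and CEBPB (-0.68) went opposite ways. Among p38 phosphatase genes, 2 of 8 tested rose and 1 fell (median 0.081), so 37.5% were called beside 69.5% of all tested genes. PPM1B rose (0.67, with 40.4% unique reads and 21.8% of its exon bases under other coding genes), and DUSP10, which encodes a phosphatase selective for p38 and JNK, rose (0.26, lost against a 1.2-fold change with adjusted p = 0.54). DUSP16 fell by 0.14, a call lost in 7 of 15 alternatives, with adjusted p of 0.061 to 1.0 there.

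Inflammatory mRNAs whose stability is known to be under p38 and MK2 control were the 1 list that moved in a single direction. The 9 tested of 11 listed all fell, beside 35% of all tested genes, while TNF had no read and CSF2 did not pass the filter on low counts. IL1A had 4 to 8 reads and IL6 4 to 11 reads per PERK siRNA sample, and since both passed that filter through their control samples, their falls add nothing to the count. IL1B, named in the series title, averaged 20.3 ± 2.83 CPM with PERK siRNA and 64.4 ± 2.90 CPM with control siRNA (-1.67, adjusted p = 2.3e-11, edgeR). PLAU averaged 21.6 ± 1.38 and 148.5 ± 3.04 CPM (-2.78, with 31.1% of exon bases under another coding gene), VEGFA 14.5 ± 1.33 and 99.1 ± 4.42 CPM (-2.77), and CXCL1 5.50 ± 0.60 and 20.7 ± 1.66 CPM (-1.90). The list was drawn up when falls of several of its members were already known, so its count is a description. Of the genes of the 2 kinases that act on such mRNAs, MAPKAPK2 had a 95% interval from -0.079 to 0.039, and MAPKAPK3 rose by 0.62. Neither value measures kinase activity, and their part in the falls was not tested.

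**Figure D4:**
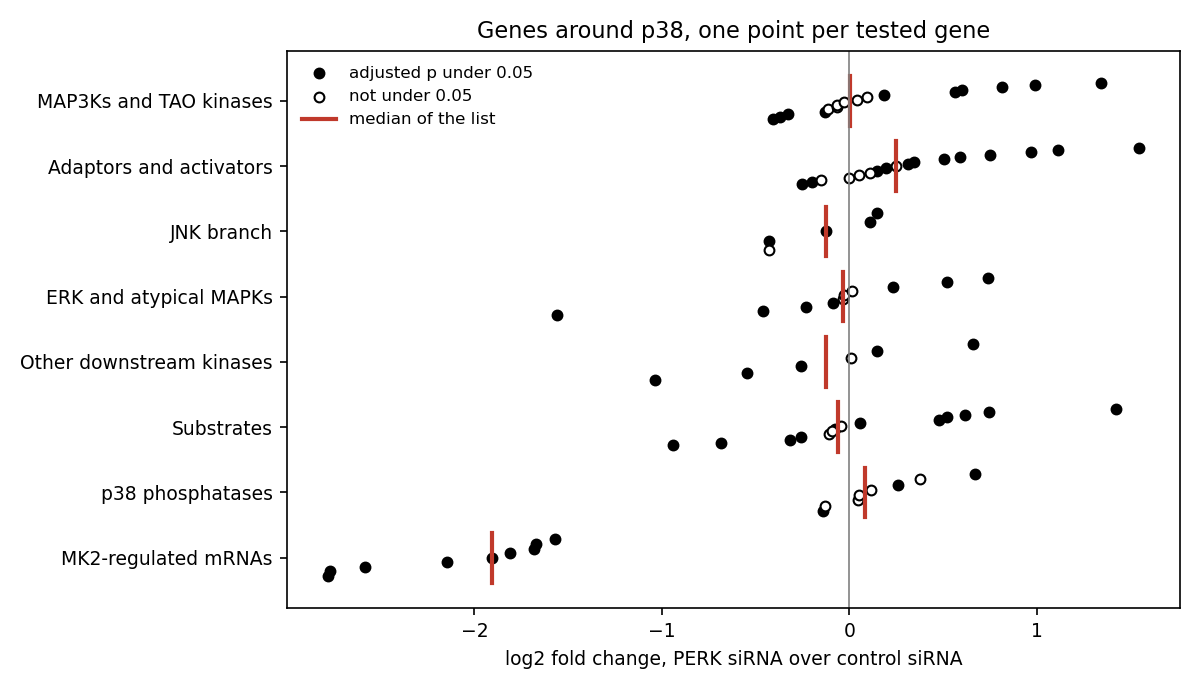
log2 fold change, PERK siRNA over control siRNA, of each tested gene in 8 lists around p38, filled where the adjusted p was under 0.05, with the list median in red. The upstream and downstream lists straddle 0, and the 9 MK2-regulated mRNAs lie between -2.78 and -1.57. Of these, IL1A and IL6 passed the filter on low counts through their control samples. The list was drawn up when falls of several of its members were already known.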

How the data were processed

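RNA sequencing libraries of LX-2 cells were compared between 3 samples with PERK siRNA and 3 with control siRNA, grouped by sample title. Per the labels' protocols, libraries were made with a kit that keeps strand. Per the submitters' processing notes, reads were handled on hg38. Aligner, annotation release and strand setting were not given in the sources used here. Per the file headers, the authors deposited counts per gene (total and unique exon reads) and TPM. Total exon reads were 17937141 to 19585872 per sample.

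Counts were tested with edgeR 4.0.16 (quasi-likelihood, TMM, default expression filter, robust, R 4.3.3) over 12973 genes, with Benjamini-Hochberg adjustment and a threshold of 0.05. Log2 fold changes are PERK siRNA over control siRNA. Shares of the deposited TPM were compared by two-sided exact permutation tests (SciPy 1.17.1). Alternatives were other scaling, filters, DESeq2 1.42.0, limma-voom 3.58.1, unique exon reads, a 1.2-fold null, a replicate block and leaving out each sample. Libraries of a group differed beyond counting noise (chi-square per degree of freedom 1.64 to 2.30). Gene places and exon overlaps came from GENCODE 29, on the same assembly as hg38. Overlaps were counted whatever the strand of the other gene, so an overlap need not mean shared reads.

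The kinases and lists were chosen with earlier results of these data known. Named genes were EIF2AK3, IL1B, the 10 kinases, up to 3 genes of each list with the smallest p, and the 3 genes closest in profile to MAPK13 and to MAP2K4; 1 gene so named is not reported here.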

Additional observations from a re-analysis of the deposited data

How the results depend on the processing

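The falls of MAPK13, MAP2K4, MAP2K6 and MAP3K5 and the rise of MAPKAPK3 kept their direction and an adjusted p under 0.05 in all 15 alternatives. With a sample left out, the difference in share of TPM was -1.03 to -0.916 percentage points for MAPK13, -17.7 to -16.5 for MAP2K4 and 8.09 to 8.47 for MAPKAPK3. Higher calls among the 10 kinases numbered 2, but 1 with DESeq2 and 1 against a 1.2-fold change, and 1 to 3 when a sample was left out. Against a 1.2-fold change 2345 of all tested genes were higher and 2344 lower, not 4469 and 4545, and in the 8 lists 19 and 18, not 31 and 30. MAPK12 kept 0.19 with DESeq2 (adjusted p = 0.066) and 0.18 against a 1.2-fold change (adjusted p = 1.0), and gave 0.14 to 0.22 with a sample left out. MAPK11 passed on unique exon reads (0.18) and gave 0.091 to 0.27 with a sample left out, MAP2K3 gave 0.066 to 0.10, and MAPKAPK2 gave -0.042 to 0.0040, its sign turning without PERK siRNA sample 2 (adjusted p = 0.92). The causes were not tested. Samples of the same number did not deviate together (r of -0.032 to 0.011). This cannot exclude that they were prepared in pairs, which the labels do not state. With the replicate number as a block, 4460 genes were higher and 4543 lower, 2 kinases were higher and 4 lower, MAPK13 had -1.39 and MAPK11 0.18 (adjusted p = 0.052). Depth limits MAPK13 above all, with 16 to 23 reads per PERK siRNA sample.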
